A study of Mus musculus with 11 samples.

Results

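Integrins are the cell surface receptors that hold macrophages to other cells and to the matrix. The 10 integrin subunit genes described here are *Itgam*, *Itgal*, *Itga4*, *Itga5*, *Itga6*, *Itgav*, *Itgb1*, *Itgb2*, *Itgb5* and *Itgb7*, chosen by name from the 12932 genes of a bulk RNA-seq table of alveolar macrophages (AMs), and every member was in the table. *Itgam* encodes CD11b, the surface protein that was used to sort the immature cells, so its level in those cells was set by the sort. The mature cells were sorted as CD11b-, so the sort also limits *Itgam* in the comparison of their genotypes. Control mature AMs (mAM_WT, 4 libraries) were CD11b-/SiglecF+ cells of Cre-negative *Rxrab* fl/fl mice, which carry floxed alleles of the nuclear receptor genes *Rxra* and *Rxrb*. RXR-deficient mature AMs (mAM_KO, 4 libraries) were sorted through the same gate from *Cd11c*Cre+ *Rxrab* fl/fl mice, and immature AMs (Imm_KO, or ImmAMs, 3 libraries numbered 2 to 4) were the CD11b+/SiglecF+ cells of that genotype. All 3 groups share the floxed alleles, and the Cre is driven by the promoter of *Itgax* (*Cd11c*), itself an integrin gene. The mice were 9 weeks old, of both sexes and on a C57BL/6J background. Immature AMs of control mice were not analysed here, so genotype and maturity cannot be told apart in ImmAMs against mAM_WT. ImmAMs and mAM_KO share a genotype, but whether their differences also hold between such cells of control mice was not tested. Each library came from 40000 cells and holds 1 value per gene in CPM, a read count scaled to a library of fixed size.

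An integrin is a pair of an α and a β chain, and the pair sets the ligand. The β2 integrins belong to leukocytes: *Itgb2* (CD18) pairs with *Itgal* (CD11a), *Itgam* (CD11b), *Itgax* (CD11c) or *Itgad* (CD11d) to bind ICAMs and, for some pairs, fibrinogen and the complement fragment iC3b. *Itga4* pairs with *Itgb1* to bind VCAM-1 and fibronectin and with *Itgb7* to bind MAdCAM-1, and both pairs are known from the recruitment of monocytes and lymphocytes. *Itga5* with *Itgb1* is the classic fibronectin receptor, *Itga6* with *Itgb1* binds laminin, and *Itgav* with *Itgb5* binds vitronectin and bridges to apoptotic cells through MFG-E8. Resident AMs of the adult mouse are known for high CD11c and low CD11b, whereas monocytes and cells recently derived from them carry CD11b.

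*Itgam*, *Itga4* and *Itgb7* had the largest increases among the 10 members in ImmAMs, and their promoters are shown for that reason. The sequences run from 250 bases before to 50 bases after the annotated start, 5′ to 3′ on the gene's strand, from RefSeq on GRCm38.p6, at chr7:128062390-128062689 (plus strand) for *Itgam*, chr2:79255176-79255475 (plus strand) for *Itga4* and chr15:102231886-102232185 (minus strand) for *Itgb7*. Capitals mark matches, on either strand, to 4 short motifs: GAGGAA, a core recognised by the myeloid factor PU.1; AGGTCA, the half-site of nuclear receptors such as RXR; TGTGGT, a core recognised by RUNX factors; and GGGCGG, the GC box.
Itgam: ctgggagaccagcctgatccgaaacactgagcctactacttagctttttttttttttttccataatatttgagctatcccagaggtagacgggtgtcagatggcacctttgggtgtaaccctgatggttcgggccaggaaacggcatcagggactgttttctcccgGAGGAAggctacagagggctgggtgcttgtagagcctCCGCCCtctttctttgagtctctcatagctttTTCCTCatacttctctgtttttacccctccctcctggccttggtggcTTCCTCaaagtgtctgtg
Itga4: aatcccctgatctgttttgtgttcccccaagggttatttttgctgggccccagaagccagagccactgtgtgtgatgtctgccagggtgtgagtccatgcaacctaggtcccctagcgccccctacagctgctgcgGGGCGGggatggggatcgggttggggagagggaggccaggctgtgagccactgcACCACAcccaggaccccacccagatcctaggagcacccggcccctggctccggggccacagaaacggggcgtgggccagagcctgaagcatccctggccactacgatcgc
Itgb7: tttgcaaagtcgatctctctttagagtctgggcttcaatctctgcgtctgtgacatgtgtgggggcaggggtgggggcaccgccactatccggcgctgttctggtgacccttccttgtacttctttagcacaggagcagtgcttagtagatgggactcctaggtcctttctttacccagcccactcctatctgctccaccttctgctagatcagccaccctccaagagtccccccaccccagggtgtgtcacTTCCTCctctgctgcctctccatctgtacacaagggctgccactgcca
The *Itgam* promoter held 3 matches to GAGGAA and 1 to GGGCGG, the *Itga4* promoter 1 match to TGTGGT and 1 to GGGCGG, and the *Itgb7* promoter 1 match to GAGGAA, with no overlap between matches. Promoters were found for 7 of the 10 members. GAGGAA was in 5 of the 7 and in 28.3% of all 32851 promoters of the same length, GGGCGG in 6 of the 7 and in 35.7% of all, TGTGGT in 1 of the 7 and in 16.8% of all, and AGGTCA in 0 of the 7 and in 16.3% of all. These are matches of letters in a short window and not binding sites.

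The reads counted on the genes of the table were 16659960 to 37873532 per library (median 21620088). In mAM_WT, *Rxra* was at 310 to 380 CPM and *Rxrb* at 51.4 to 72.1 CPM. The ranges were 334 to 419 and 39.3 to 55.3 CPM in mAM_KO, and 283 to 305 and 31.9 to 35.2 CPM in ImmAMs. The table does not separate floxed exons from exons that remain, so these totals do not check the deletion. ImmAMs were sorted as SiglecF+, and *Siglecf* was at 19.3 to 19.7 CPM in them against 244 to 264 CPM in mAM_WT and 198 to 241 CPM in mAM_KO. Of the 14 AM markers, 11 were lower in ImmAMs than in mAM_WT in limma and 1 was higher. Over all genes, 25.3% were lower and 22.8% higher in the same test. The marker lists of T cells, NK cells, mast cells, endothelium and fibroblasts had 0 genes among those of the table. The alveolar epithelium list had 4 of its 8 genes there. They summed to 12.3 to 18.4 CPM in mAM_WT, 14.5 to 17.3 CPM in mAM_KO (22.6 in replicate 4) and 38.4 to 42.6 CPM in ImmAMs. Of these 4 genes, 2 were called higher and 1 lower in ImmAMs against mAM_WT. The legends of the study use 3 of the 4 mAM_KO libraries, and the tests below leave out mAM_KO replicate 4 unless stated. In bulk libraries, a change in the share of cells of a type and a change in RNA per cell cannot be told apart.

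The tests ask which integrin subunits differ between genotypes in mature AMs and between ImmAMs and either kind of mature AM. A limma model gave each group its own mean of log2 CPM over 12889 genes, and a gene at a Benjamini-Hochberg adjusted p under 0.05 over all of them is called. In mAM_KO against mAM_WT, 2 of the 10 subunits were called, both higher (*Itgb7* and *Itgam*), where 4.84% of all genes were called (2.25% higher and 2.59% lower, and 2.61% called with all 11 libraries). Both groups were sorted as CD11b-, so the *Itgam* call describes only cells within that gate. The median log2 fold change of the members was 0.18, against -0.0019 over all genes. For the ImmAMs, counts run over the 9 members other than *Itgam*. All 9 were called against mAM_WT, 7 higher and 2 lower, where 48.1% of all genes were called (22.8% higher and 25.3% lower). Against mAM_KO, 5 were called higher, 2 lower and 2 not, where 37.9% of all genes were called (17.7% higher and 20.2% lower). The median log2 fold changes of the 9 were 0.46 and 0.28, against -0.0025 and -0.0053 over all genes. The first pair of comparisons shares the mAM_WT libraries, and the comparisons with mAM_KO share those libraries, so the counts are not independent of each other.

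**Figure D1:**
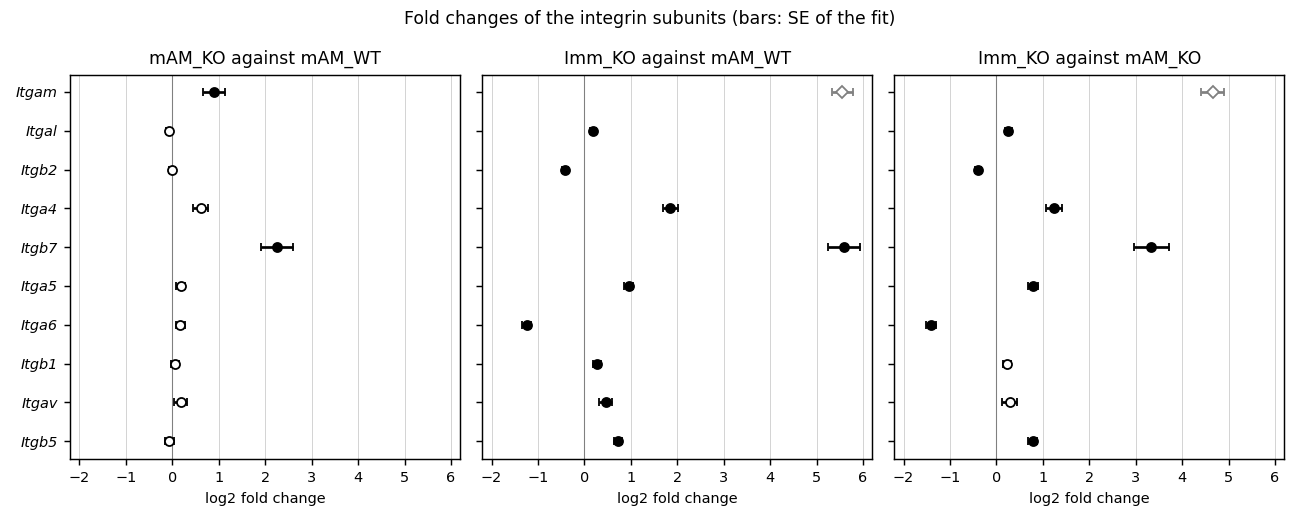
Log2 fold change of each integrin subunit in the 3 comparisons, with the SE of the limma fit as bars. Filled circles are called, open circles are not, and grey diamonds mark *Itgam* where the sort fixed it and no test was made; *Itgb7* is farthest to the right among the tested subunits in each panel.

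*Itgam*, the αM chain of complement receptor 3 (ENSMUSG00000030786, chr7:128062640-128118491 on GRCm38), was low in both kinds of mature AM and abundant in ImmAMs. It was at 3.58, 3.52, 3.55 and 3.85 CPM in mAM_WT, at 7.87, 3.93 and 9.95 CPM in mAM_KO replicates 1 to 3 and 7.81 CPM in replicate 4, and at 168, 174 and 168 CPM in ImmAMs. All mAM_KO libraries lay above all mAM_WT libraries, but mAM_KO replicate 2 was close to the highest control. The mAM_WT values rest on 78 to 135 reads per library, the mAM_KO values on 92 to 179 and the ImmAM values on 2822 to 3758. In mAM_KO against mAM_WT the log2 fold change was 0.90 (SE 0.234, limma adjusted p = 0.0479, or 0.95 and 0.0332 with all 11 libraries). The call was kept without mAM_KO replicate 2 (1.29, adjusted p = 0.000128) and lost without any other single library (0.62 to 0.93, adjusted p of 0.0597 to 0.170). The mean was 3.63 ± 0.155 CPM in mAM_WT (SD, n = 4), 7.25 ± 3.06 CPM in mAM_KO (SD, n = 3) and 170 ± 3.50 CPM in ImmAMs (SD, n = 3), so the ImmAMs were 47.0-fold above mAM_WT and 25.2-fold above mAM_KO in the fit, a difference that describes the CD11b gate. Of the 60-base windows along *Itgam* transcripts, 68.2% also lie in *Gm49368*, an overlapping gene, so reads may have been divided between them and the level of *Itgam* is uncertain.

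**Figure D2:**
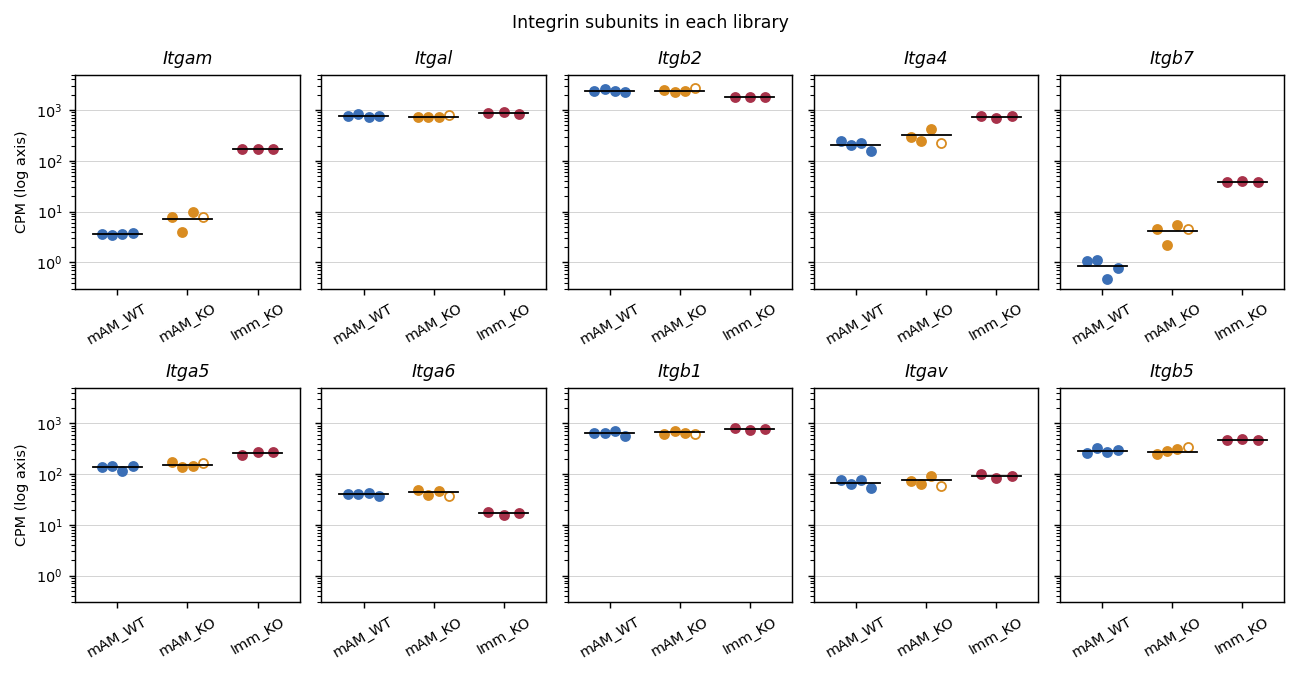
CPM of the 10 subunits in every library on a shared log axis, with a line at the mean of the libraries fitted and mAM_KO replicate 4 drawn open. *Itgam* and *Itgb7* step up from mAM_WT to mAM_KO to ImmAMs, *Itga6* and *Itgb2* are lower in ImmAMs, and the remaining genes overlap between the mature groups once replicate 4 is counted.

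The common β2 chain moved the other way. *Itgb2* (CD18; chr10:77530252-77565708) was at 2345, 2541, 2412 and 2295 CPM in mAM_WT, at 2433, 2298 and 2399 CPM in mAM_KO (2712 in replicate 4) and at 1787, 1833 and 1789 CPM in ImmAMs. The mature groups overlapped, and every ImmAM library lay below every mature library. Its log2 fold change was -0.01 (SE 0.0637, adjusted p = 0.926) in mAM_KO against mAM_WT, -0.41 (SE 0.0637, adjusted p = 0.000158) in ImmAMs against mAM_WT and -0.40 (SE 0.0681, adjusted p = 0.000494) against mAM_KO. *Itgal* (CD11a, the α chain of LFA-1; chr7:127296260-127335138) was at 747, 833, 719 and 770 CPM in mAM_WT, 720, 725, 735 and 809 CPM in mAM_KO replicates 1 to 4, and 857, 914 and 838 CPM in ImmAMs. The ImmAM libraries were the 3 highest, by a small margin. The rise was 0.18 on the log2 scale against mAM_WT (SE 0.0646, adjusted p = 0.0335) and 0.26 against mAM_KO (SE 0.0691, adjusted p = 0.0101), and neither call held under every alternative. The former was lost with all 11 libraries (adjusted p = 0.0543), with only the 2 groups compared (0.0521), with no variance trend (0.0573) and without mAM_WT replicate 1 or 3 or ImmAM replicate 2 or 3 (0.0677 to 0.135).

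Of the 17 other integrin genes looked for, 5 were analysed here, and both remaining partners of *Itgb2* are among them. *Itgax* (CD11c, the AM surface marker whose promoter drives the Cre) was at 1520 to 1687 CPM in mAM_WT, 1639 to 1937 CPM in mAM_KO and 1401 to 1453 CPM in ImmAMs, and was called lower in ImmAMs against mAM_KO (log2 fold change -0.33, SE 0.0748, adjusted p = 0.00375) and against mAM_WT (-0.19, adjusted p = 0.0389, but 0.0542 with all 11 libraries, and called in 4 of the 10 fits that leave out a library). *Itgad* (CD11d) was at 34.3, 33.6, 23.6 and 31.9 CPM in mAM_WT, 48.8, 14.1, 16.5 and 30.5 CPM in mAM_KO replicates 1 to 4, and 0.984, 1.23 and 1.13 CPM in ImmAMs. It fell by 4.78 on the log2 scale in ImmAMs against mAM_WT (SE 0.333, adjusted p = 1.11e-07) and fell by 4.34 against mAM_KO (SE 0.356, adjusted p = 9.07e-07), and its mAM_KO libraries lay on both sides of the controls (log2 fold change -0.44, adjusted p = 0.448, or -0.999 and 0.0318 without mAM_KO replicate 1). *Itgax* and *Itgad* lie next to *Itgam* on chromosome 7, and 11.8% of the *Itgad* windows are also found in other genes.

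As shares of the summed CPM per kilobase of the 4 α chains of β2, *Itgax* made up 72.2 ± 1.53% in mAM_WT (SD, n = 4), 75.0 ± 0.983% in mAM_KO (SD, n = 3) and 63.4 ± 1.15% in ImmAMs (SD, n = 3). *Itgal* made up 26.4 ± 1.37%, 23.6 ± 1.59% and 29.98 ± 1.09%. *Itgam* made up 0.139 ± 0.0112% of the controls' sum, 0.259 ± 0.101% of that of mAM_KO and 6.55 ± 0.0701% of that of ImmAMs, while *Itgad* was at 1.35 ± 0.213%, 1.07 ± 0.729% and 0.0488 ± 0.00467%. So CD11c transcripts stayed the most abundant in all 11 libraries, and in the cells sorted for CD11b the *Itgam* share was still below that of *Itgal*. Among the β partners of *Itga4*, *Itgb7* rose from 0.191 ± 0.0664% of the sum with *Itgb1* in mAM_WT to 0.881 ± 0.383% in mAM_KO and 6.66 ± 0.390% in ImmAMs. The size of this share depends on the transcript length: with the median coding length, an alternative chosen after seeing the data, it was 0.701%, 3.17% and 20.9%, and the *Itgam* share in ImmAMs was 5.26%.

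**Figure D3:**
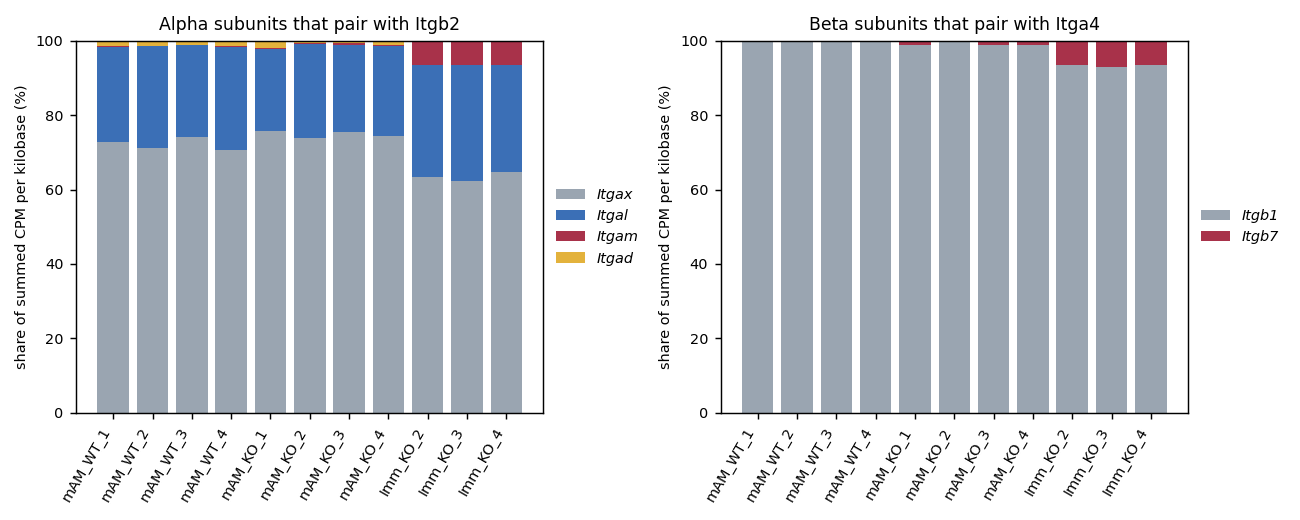
Shares, in percent of summed CPM per kilobase of the longest coding transcript, of the α chains that pair with *Itgb2* (left) and of the β chains that pair with *Itga4* (right), 1 bar per library. *Itgam* and *Itgb7* become visible in the 3 ImmAM libraries at 6.55% and 6.66% on average, and *Itgad* is seen in the mature libraries.

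Both chains of α4β7 rose in ImmAMs, and *Itgb7* also rose in mAM_KO. *Itgb7*, the β chain of the gut-homing integrin (ENSMUSG00000001281, chr15:102215995-102231944), was at 1.07, 1.11, 0.469 and 0.761 CPM in mAM_WT, 4.55, 2.23 and 5.51 CPM in mAM_KO replicates 1 to 3 and 4.56 CPM in replicate 4, and 38.4, 39.4 and 38.2 CPM in ImmAMs. The 3 groups did not overlap, and mAM_KO replicate 2 was again the lowest of its group. The control values rest on 12 to 40 reads per library and the mAM_KO values on 52 to 99. Its log2 fold change was 2.25 in mAM_KO against mAM_WT (SE 0.343, adjusted p = 0.0047), or 4.74-fold. It was called under every alternative and with each library left out (1.98 to 2.63), but the size depends on the pseudocount and was 1.42 on the log2 scale with 1 CPM added. In ImmAMs it was 5.58 against mAM_WT (SE 0.343, adjusted p = 3.47e-08) and 3.34 against mAM_KO (SE 0.367, adjusted p = 1.22e-05).

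*Itga4*, the α chain of VLA-4 (ENSMUSG00000027009, chr2:79255426-79333123), was at 249, 203, 223 and 159 CPM in mAM_WT, 294, 250 and 420 CPM in mAM_KO replicates 1 to 3 and 226 CPM in replicate 4, and 766, 693 and 767 CPM in ImmAMs. The ImmAM libraries lay above all others, and the mature groups overlapped only through mAM_KO replicate 4. The log2 fold change in mAM_KO against mAM_WT was 0.61 (SE 0.165, adjusted p = 0.0533), which was not called, and it was 0.49 with all 11 libraries (adjusted p = 0.170). It was called without mAM_WT replicate 1 (adjusted p = 0.0315) or mAM_KO replicate 2 (adjusted p = 0.0167), with a pseudocount of 1 CPM (0.0499), with a filter at 5 CPM (0.0453) and in DESeq2 (0.0360). In ImmAMs *Itga4* rose by 1.85 against mAM_WT (SE 0.165, adjusted p = 1.10e-06) and by 1.24 against mAM_KO (SE 0.176, adjusted p = 0.000111). A gene on the opposite strand, *Cerkl*, overlaps its exons and had 18 to 106 reads per library beside at least 3245 for *Itga4*. *Itgae* (CD103, the other α partner of *Itgb7*), named after its values were seen, was at 0.141 to 0.319 CPM in mAM_WT, 0.637 to 1.82 CPM in mAM_KO and 0.626 to 1.55 CPM in ImmAMs, on 3 to 39 reads per library. Its difference between genotypes was called at adjusted p = 0.0495 and was lost under 4 of the other settings. With a library left out the gene passed the filter in 7 fits, and the call was lost in all 7. Between ImmAMs and mAM_KO the log2 fold change of *Itgae* was -0.07 (adjusted p = 0.953).

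Among the matrix receptors that use *Itgb1*, the fibronectin and laminin α chains moved in opposite directions in ImmAMs. *Itga5* (chr15:103344286-103366763) was at 139, 141, 113 and 147 CPM in mAM_WT, 172, 140, 145 and 169 CPM in mAM_KO replicates 1 to 4, and 238, 271 and 275 CPM in ImmAMs. *Itga6* (chr2:71745616-71858416) was at 40.04, 40.6, 41.7 and 36.7 CPM in mAM_WT, 48.7, 38.8, 47.5 and 37.4 CPM in mAM_KO replicates 1 to 4, and 18.1, 15.7 and 16.8 CPM in ImmAMs. The mature groups overlapped for both genes, and neither overlapped with the ImmAMs. *Itga5* was higher in ImmAMs by 0.96 against mAM_WT (SE 0.1003, adjusted p = 4.94e-06) and by 0.78 against mAM_KO (SE 0.107, adjusted p = 8.52e-05), whereas *Itga6* fell by 1.24 against mAM_WT (SE 0.0996, adjusted p = 4.16e-07) and by 1.41 against mAM_KO (SE 0.106, adjusted p = 4.42e-07). Between the genotypes of mature AMs the log2 fold changes were 0.18 for *Itga5* (adjusted p = 0.303) and 0.17 for *Itga6* (adjusted p = 0.314). The shared chain *Itgb1* (chr8:128685654-128733200) was at 654, 652, 696 and 554 CPM in mAM_WT, 628, 704, 658 and 625 CPM in mAM_KO replicates 1 to 4, and 795, 732 and 789 CPM in ImmAMs. It was higher in ImmAMs than in every mature library, by 0.28 against mAM_WT (SE 0.0797, adjusted p = 0.0121), a call lost without ImmAM replicate 2 (0.0524). Against mAM_KO the difference was 0.22 (SE 0.0852, adjusted p = 0.0598) and was not called. It was called with all 11 libraries (adjusted p = 0.0335) and without mAM_WT replicate 4 (0.0150). The call was also gained with no TMM factor (0.0377), with only the 2 groups compared (0.0229), in limma-voom (0.0480) and in DESeq2 (0.0292).

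The αv receptor chains were also higher in ImmAMs than in mAM_WT. *Itgb5* (chr16:33829665-33949338), the β chain of αvβ5, was at 261, 329, 270 and 302 CPM in mAM_WT, 245, 283, 306 and 345 CPM in mAM_KO replicates 1 to 4, and 462, 496 and 472 CPM in ImmAMs. It was higher in ImmAMs by 0.72 against mAM_WT (SE 0.0921, adjusted p = 3.04e-05) and by 0.78 against mAM_KO (SE 0.0985, adjusted p = 3.85e-05), with no overlap. Between the mature groups its log2 fold change was -0.06 (adjusted p = 0.712). *Itgav* (chr2:83724397-83806916) was at 78.1, 63.1, 75.2 and 53.6 CPM in mAM_WT, 74.5, 62.8, 92.3 and 58.6 CPM in mAM_KO replicates 1 to 4, and 98.4, 84.9 and 92.8 CPM in ImmAMs. It was called higher against mAM_WT only (0.46, SE 0.142, adjusted p = 0.0171), a call lost without ImmAM replicate 2 (0.0701) or 4 (0.0508). Against mAM_KO the groups overlapped and the difference was 0.28 (SE 0.152, adjusted p = 0.166), called only without mAM_KO replicate 3 (0.0443).

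Per kilobase of the longest coding transcript, *Itgb2* was the most abundant member in each group (807 ± 35.8 CPM per kilobase in mAM_WT, SD, n = 4). It was followed in mAM_WT by *Itgb1* (168), *Itgal* (147), *Itgb5* (88.5), *Itga5* (30.8), *Itga4* (21.4), *Itgav* (9.57), *Itga6* (9.22), *Itgam* (0.774) and *Itgb7* (0.317). *Itgb1* and *Itgal*, and *Itgav* and *Itga6*, could not be put in order in mAM_WT because their libraries overlapped. In mAM_KO the order was the same, with overlaps of *Itga5* with *Itga4*, *Itgav* with *Itga6* and *Itgam* with *Itgb7*. In ImmAMs no neighbours overlapped on this length, with *Itga4* (76.0 CPM per kilobase) above *Itga5* (59.6), then *Itgam* (36.4), *Itgb7* (14.4), *Itgav* (13.05) and *Itga6* (3.91). The order of several members depends on the transcript length used, and the place of *Itgam* is also uncertain because most of its windows are shared with *Gm49368*. Per kilobase of the median coding transcript, *Itgav* was at 98.1 CPM in mAM_WT and 134 CPM in ImmAMs, there above *Itgb7* (89.8) and *Itgam* (40.8), and *Itgb7* was above *Itgam* in all 3 groups. *Itgb2*, *Itgb1* and *Itgal* were the 3 highest and *Itga6* was the lowest in ImmAMs with either length.

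Over all 11 libraries, the genes whose centred log2 CPM lay closest to that of *Itgam* among 9946 genes at a mean of 5 CPM or more included *Cxcl16* (root mean square distance 0.322), *Csf1* (0.347), *Tsku* (0.378) and *Fstl1* (0.384). *Cxcl16* encodes a chemokine and *Csf1* the growth factor of macrophages. *Itgb7* was the closest other subunit, at rank 25 (0.716), followed by *Itga4* at rank 218 (1.59). The genes closest to *Itgb2* included *Stk24*, *Ogdh*, *Dhx29* and *Sdha* (0.0444 to 0.0557), and *Itgax* was at rank 186 (0.0990), while *Itgam* was at rank 9886. The distances were computed on all libraries together, and in this measure a gene with little change is close to any other such gene.

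Of the machinery that couples integrins to the cytoskeleton, 24 of the 29 genes looked for were in the table. In mAM_KO against mAM_WT, 0 were called higher and 2 lower, *Rapgef1* (-0.27, adjusted p = 0.0315) and *Fermt3* (kindlin-3, the activator of β2 integrins; -0.24, adjusted p = 0.0498). In that comparison 2.25% of all genes were called higher and 2.59% lower. With each of the 10 libraries left out, *Rapgef1* was called in 2 fits and *Fermt3* in 1. *Fermt3* was at 302 CPM in mAM_KO replicate 4, against 237 ± 2.54 CPM (SD, n = 3) in the other 3 and 279 ± 18.0 CPM (SD, n = 4) in mAM_WT. In ImmAMs against mAM_WT, 5 were called higher and 10 lower, beside 22.8% and 25.3% of all genes. Against mAM_KO the counts were 5 and 9, beside 17.7% and 20.2%. *Tln2* (talin 2), *Vcl* (vinculin) and *Parvb* were higher by 2.15, 1.88 and 1.02 on the log2 scale against mAM_WT, and *Actn1* (α-actinin), *Flna* (filamin A) and *Parvg* fell by 1.31, 0.85 and 0.61, all at adjusted p of 6.20e-05 or less. The list's median log2 fold changes were -0.07, -0.18 and -0.05 in the 3 comparisons. *Tln2* and *Vcl* stayed low in ImmAMs, at 9.01 ± 0.156 and 8.49 ± 2.84 CPM (SD, n = 3), beside 2138 ± 122 CPM for *Flna*.

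Among 30 signalling kinases and adaptors tested, 0 were called higher and 2 lower in mAM_KO, among them *Ptk2b* (Pyk2; -0.28, SE 0.0633, adjusted p = 0.0303), called in 5 of the 10 fits that leave out a library. In ImmAMs, 8 were higher and 13 lower against mAM_WT, beside 22.8% and 25.3% of all genes. Against mAM_KO the counts were 5 and 13, beside 17.7% and 20.2%. *Ptk2b* and *Fgr* fell by 1.11 and 0.88 against mAM_WT, and *Fyb* (ADAP), *Src* and *Ptk2* (FAK) rose by 4.38, 2.52 and 1.81. *Ptk2b* went from 383 ± 18.7 CPM (SD, n = 4) in mAM_WT to 315 ± 9.58 CPM (SD, n = 3) in mAM_KO and 178 ± 10.1 CPM (SD, n = 3) in ImmAMs, and was called lower in all 3 comparisons. The medians of the list were -0.04, -0.11 and -0.14. *Fyb* was at 1.70 ± 1.08 CPM (SD, n = 4) in mAM_WT and 29.6 ± 0.977 CPM (SD, n = 3) in ImmAMs.

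Of the 39 ligands looked for, 17 were in the table. In mAM_KO, 3 were called higher, *Mfge8* (milk fat globule protein, a bridge between αv integrins and apoptotic cells; 0.98, SE 0.170, adjusted p = 0.00947), *Cdh1* (E-cadherin, a ligand of αEβ7; 0.69, adjusted p = 0.0122) and *F11r* (JAM-A; 0.25, adjusted p = 0.0205). *Emilin1* (-1.28, adjusted p = 0.0175) and *Tgfb1* (-0.41, adjusted p = 0.0253) were called lower. *F11r*, *Emilin1* and *Tgfb1* were each called in 7 of the 10 fits that leave out a library. In ImmAMs, 8 were higher and 6 lower against mAM_WT, beside 22.8% and 25.3% of all genes. Against mAM_KO the counts were 7 and 5, beside 17.7% and 20.2%. *Fn1*, the ligand of α5β1 and α4β1, was at 1755 ± 279 CPM (SD, n = 4) in mAM_WT, 1503 ± 155 CPM (SD, n = 3) in mAM_KO and 6789 ± 340 CPM (SD, n = 3) in ImmAMs, a rise of 1.96 on the log2 scale against mAM_WT (adjusted p = 1.94e-08). *Thbs1* (4.79) and *Mfge8* (3.41) rose too, and *Icam5*, *Emilin1* and *C3* fell by 2.51, 2.19 and 0.82. The medians of the ligands were 0.01, 0.38 and 0.17. Against mAM_KO, *Spp1* (osteopontin) fell by 1.03, from 723 ± 117 to 351 ± 21.5 CPM (SD, n = 3 each).

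A list of tetraspanins, CD47 partners and other proteins that sit beside integrins in the membrane held 14 genes, and all were in the table. In mAM_KO, 2 were called higher, *Cd63* (1.64, SE 0.201, adjusted p = 0.00168) and *Tspan4* (0.64, adjusted p = 0.0328, called in 6 of the 10 fits that leave out a library), and 0 lower. In ImmAMs, 6 were higher and 4 lower against mAM_WT, beside 22.8% and 25.3% of all genes. Against mAM_KO the counts were 6 and 5, beside 17.7% and 20.2%. *Cd63* stood at 42.4 ± 10.96 CPM in mAM_WT (SD, n = 4), 133 ± 41.5 CPM in mAM_KO (SD, n = 3) and 505 ± 13.4 CPM in ImmAMs (SD, n = 3). *Cd81* and *Tspan4* were higher by 1.15 and 1.53 against mAM_WT, and *Cd47*, its receptor *Sirpa* and *Cd9* were lower by 0.99, 0.69 and 0.47. *Cd37* rose by 1.31 against mAM_KO and *Cd36* fell by 0.41 (adjusted p = 0.0345, called in 5 of those 10 fits). The medians were -0.04, -0.03 and -0.02. These 4 lists were written with earlier results of these data known, and their counts are to be read against the shares of all genes called in each comparison. Between the mature groups those shares were 2.25% higher and 2.59% lower.

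**Figure D4:**
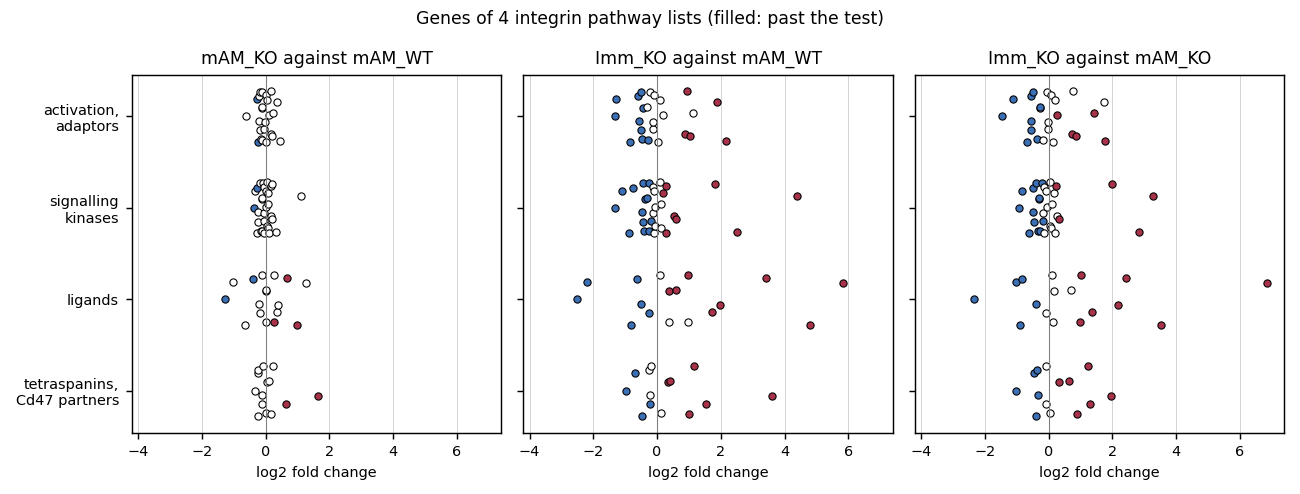
Log2 fold change of the tested genes of 4 integrin pathway lists, 1 point per gene, in the 3 comparisons. Red points are called higher, blue points called lower and open points not called; few points are filled in mAM_KO against mAM_WT, and most are in ImmAMs.

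Many markers of other myeloid cells were also higher in ImmAMs, and some were in mAM_KO. The summed level of the 7 listed interstitial macrophage markers was 10.4 to 15.8 CPM in mAM_WT, 16.2, 18.9 and 35.2 CPM in mAM_KO replicates 1 to 3 (20.05 in replicate 4) and 374 to 394 CPM in ImmAMs. *Ccr2* and *Cx3cr1* are in this list and in the monocyte list, so the sums of these lists are not independent. In mAM_KO replicates 1 to 3 they averaged 16.3 and 4.84 CPM and made up most of this sum, while *C1qa*, *C1qb* and *C1qc* averaged 0.146 to 0.201 CPM. In ImmAMs *Ccr2* and *Cx3cr1* averaged 83.0 and 118 CPM. The monocyte list (6 of 8 genes in the table) summed to 140 to 148, 138 to 181 and 294 to 308 CPM. Of its 6 genes, 4 were called higher and 2 lower in ImmAMs against mAM_WT, and 2 higher and 2 lower in mAM_KO against mAM_WT. *Treml4* of this list fell from 46.1 ± 4.56 CPM in mAM_WT (SD, n = 4) to 3.15 ± 0.318 CPM in ImmAMs (SD, n = 3). The neutrophil list (7 of 10) summed to 55.8 to 63.5, 113 to 341 and 904 to 977 CPM. In it *Mmp8* alone was at 884 ± 31.8 CPM (SD, n = 3) in ImmAMs, and *Mmp8* made up most of the sum in every mAM_KO library. The study counts *Mmp8* among the AM-core genes. Of the 7 neutrophil genes, 6 were called higher in ImmAMs against mAM_WT, 2 against mAM_KO, and 1 in mAM_KO against mAM_WT. Over all genes, 22.8%, 17.7% and 2.25% were called higher in these comparisons, and 25.3%, 20.2% and 2.59% lower. *S100a8*, a defining neutrophil gene, was at 4.77 ± 1.46 CPM in mAM_WT (SD, n = 4), 5.76 ± 1.82 CPM in mAM_KO (SD, n = 3) and 14.4 ± 3.19 CPM in ImmAMs (SD, n = 3). The dendritic cell list had 2 of its 7 genes in the table, *Clec9a* and *Zbtb46*, which summed to 5.40 to 7.24 CPM in mAM_WT, 6.16 to 8.12 CPM in mAM_KO (5.45 in replicate 4) and 20.7 to 24.1 CPM in ImmAMs. Both were called higher in ImmAMs against mAM_WT, 1 of them against mAM_KO and 0 in mAM_KO against mAM_WT. Of the 5 genes of the eosinophil list, cells that also carry SiglecF and CD11b, 1 was in the table, *Ear6*, at 3.31 to 5.45 CPM in mAM_WT, 5.25 to 7.34 CPM in mAM_KO and 3.27 to 4.60 CPM in ImmAMs. *Cx3cr1*, a receptor of monocyte-derived cells, was at 4.69, 1.51, 8.34 and 2.31 CPM in mAM_KO replicates 1 to 4, against 0.583 to 1.10 CPM in mAM_WT and 110 to 124 CPM in ImmAMs, and *Mmp8* was at 158, 72.3, 303 and 132 CPM in mAM_KO. For *Itgam*, *Itgb7*, *Cx3cr1* and *Mmp8* alike, replicate 3 was the highest and replicate 2 the lowest library of mAM_KO. *Ccr2*, the chemokine receptor of classical monocytes, did not have that order, at 10.4, 15.2, 23.2 and 12.9 CPM in replicates 1 to 4, nor did the interstitial macrophage sum. The C1q genes, which mark interstitial macrophages, were near 0 in mature AMs: *C1qb* had 0 to 2 reads per mAM_WT library and 0 to 6 reads per mAM_KO library, and was at 45.8 to 49.7 CPM in ImmAMs. The part of such cells in the *Itgam* and *Itgb7* differences between the mature groups was not tested.

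**Figure D5:**
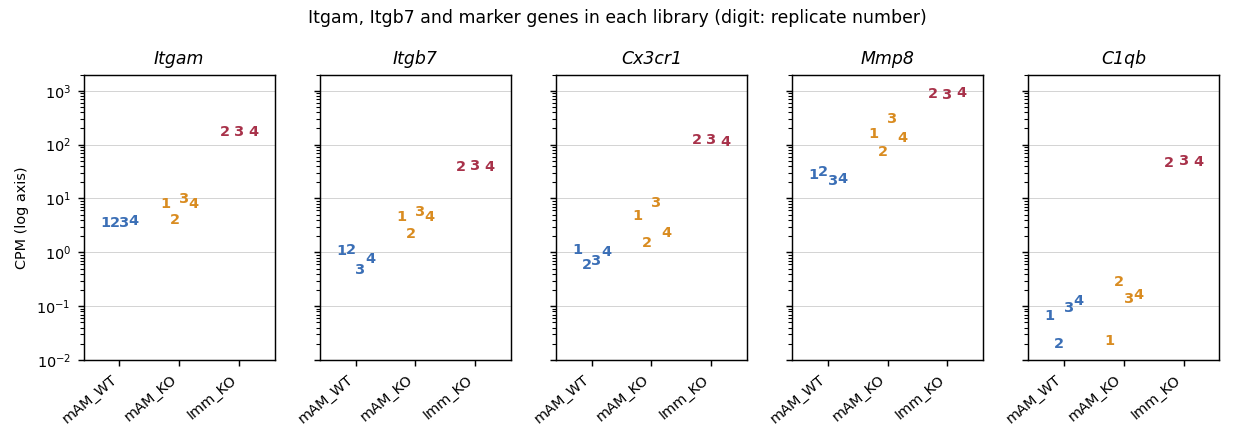
CPM of *Itgam*, *Itgb7* and 3 marker genes in each library on a log axis, each library drawn as its replicate number. Replicate 2 of mAM_KO is lowest and replicate 3 highest of their group for *Itgam*, *Itgb7*, *Cx3cr1* and *Mmp8*, while *C1qb* is not ordered that way.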

How the data were processed

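RNA of 11 libraries of sorted AMs was read as 60-base single-end reads. Per the labels and the methods of the study, the authors trimmed reads with Cutadapt (reads under 30 bases dropped), mapped them to the GRCm38 transcriptome (release 99), estimated expected counts with RSEM 1.3.1, scaled the libraries by TMM in limma and filtered out genes that did not reach 1 CPM in 3 samples. The values deposited by the authors are CPM. Within a library every value is (reads + 0.5) multiplied by a constant, from which whole reads were recovered for 100% of values (tolerance 0.01). The source of the cells is given as lavage or as digested lung, and the sequencer differs between sources. The series describes the libraries as individual biological replicates. Every library held transcripts of both sexes. The female gene *Xist* was at 119 to 539 CPM in mAM_WT, 55.5 to 458 CPM in mAM_KO and 302 to 345 CPM in ImmAMs. The male gene *Ddx3y* was at 39.7 to 100 CPM, 46.2 to 107 CPM and 64.5 to 69.3 CPM. Whether cells of several mice were pooled in a library was not tested.

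Groups were taken from the labels. Log2 of the deposited CPM, with no further pseudocount, was fitted in limma 3.58.1 (R 4.3.3) over 10 libraries, without mAM_KO replicate 4, with a mean for each group and the variance trended on the level. Genes reaching 1 CPM in 3 or more of these libraries were tested two-sided with Benjamini-Hochberg adjustment at 0.05, and 15 rows of the table have no gene name. All unlabelled adjusted p-values come from this fit. The recovered reads also went into edgeR 4.0.16, limma-voom and DESeq2 1.42.0. The fits were first tested on simulated data. *Itgam* was not tested in ImmAMs. The other alternatives were all 11 libraries, a pseudocount of 1 CPM, no filter, a filter at 5 CPM, no TMM factor, median-ratio size factors, only the 2 groups compared, no variance trend, the replicate number as a block, each library left out in turn, and, for levels per kilobase and (added after seeing the data) shares, the median transcript length. Intervals from depth cover counting error only.

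Positions, transcript lengths and shared 60-base windows come from GENCODE vM21 on GRCm38, in which 12919 of the 12932 gene identifiers were found. All members are named. Of the other genes of each pathway list, those called and averaging 5 CPM or more in the group with the higher level were named, at most the 3 largest rises and 3 largest falls per comparison, as were the 5 genes closest to *Itgam* and *Itgb2*. The members and lists were chosen with earlier results of these data known. Some genes that this rule selects are not reported here, and the counts include them.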

Additional observations from a re-analysis of the deposited data

Results flagged for a closer look

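*Itgal* in mAM_KO replicate 4 was the highest of its group at 809 CPM, apart from the other 3 mAM_KO libraries at 720, 725 and 735 CPM. The gap is above Dixon's 95% critical value for 4 libraries. This test was made for 20 groups of 4 values (the members in mAM_WT and in mAM_KO), and chance alone flags about 1 in 20. The library enters only the fits with all 11 libraries.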

How the results depend on the processing

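Between the mature groups, 1 subunit was called in place of 2 with only the 2 groups compared, with no variance trend and with limma-voom, and the call lost was that of *Itgam* (adjusted p of 0.118, 0.112 and 0.0963). With a pseudocount of 1 CPM, a filter at 5 CPM and DESeq2, 3 were called, *Itga4* being added (0.0499, 0.0453 and 0.0360). With each library left out, 1 to 3 subunits were called in mAM_KO against mAM_WT, 6 to 9 in ImmAMs against mAM_WT (6 without ImmAM replicate 2) and 7 to 8 against mAM_KO. With all 11 libraries 337 of all genes were called between the mature groups, against 624. Libraries with the same replicate number were no more alike than others. The correlations of their deviations ran from -0.12 to 0.06, against -0.15 to 0.20 for different numbers. Most same-number pairs join different genotypes. Between mAM_KO and ImmAMs the correlations were 0.057 (replicate 2) and -0.041 (replicate 3), too few to tell whether those libraries share mice. With the replicate block 1 subunit was called between the mature groups, 8 in ImmAMs against mAM_WT and 6 against mAM_KO, and *Itgal* was not called against mAM_WT (adjusted p = 0.0994) or mAM_KO (0.0540). Among the 10 members, signs turned only where a difference was close to 0 and not called, in mAM_KO against mAM_WT: with all 11 libraries *Itgb2* was at 0.0353 and *Itgb5* at 0.0149, and with each library left out *Itgb1* ran from -0.0097 to 0.0996, *Itgb2* from -0.0334 to 0.0156 and *Itgb5* from -0.138 to 0.0241 on the log2 scale. The level of *Itgb2* per kilobase in mAM_WT was 3807 CPM with the median transcript length, against 807, because short annotated transcripts lower that length. *Itgam* and *Itgb7* in mAM_WT rest on few reads, which limits the precision of their fold changes.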
